A study of Homo sapiens with 6 samples.

Results

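The BCL2 family and its caspase partner were described by 10 genes, 10 of the 19974 protein-coding genes measured. They were taken by name as 4 genes for survival proteins (BCL2, BCL2L1, BCL2L2 and MCL1), the pore-forming effector BAK1, the 4 genes BID, BAD, BCL2L11 and PMAIP1 for proteins that carry only a BH3 domain, and the caspase gene CASP2. The measured quantity was the position of R-loops, in which RNA is hybridised to 1 strand of the DNA duplex while the other DNA strand is left single. The assay, MapR, is of the CUT&RUN type: a fusion of RNase H and micrococcal nuclease (RH-MNase) binds RNA-DNA hybrids in immobilised cells, and once calcium is added the nuclease part cuts out the chromatin around them for sequencing. All libraries came from IMR90, a wild-type human embryonic lung fibroblast line grown at 2% oxygen with 10% fetal bovine serum in the medium.

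The 3 RH-MNase libraries were 1 of senescent cells, made so by ectopic expression of oncogenic Ras, 1 of quiescent cells, made so by starvation, and 1 of proliferating cells that expressed a control vector. The 10% serum is recorded for the quiescent libraries too, although these cells were made so by starvation. The labels name no vector for the quiescent cells, and neither the Ras construct, the promoter that drove it nor the number of cultures per library is given in the sources used here. The other 3 of the 6 libraries, made with GST-MNase as the background enzyme, are not analysed here. With 1 library per state there were no replicates, so that values are given side by side with no test, and a difference between lists may come from the library as well as from the state of the cells: these cannot be told apart.

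The lists differed throughout in how much of the genome they covered. The senescent list held 85564 peaks over 54.0 Mb of the main chromosomes, the quiescent list 9736 peaks over 4.12 Mb and the proliferating list 101802 peaks over 85.2 Mb. Peak lists hold peaks above the caller's threshold only, and the read depth is unknown, so that a locus without a peak had no listed peak rather than no R-loop. The median share of a protein-coding locus under peaks was 3.16% in senescent, 0% in quiescent and 5.83% in proliferating cells. Each value of the 10 genes is therefore read beside the same value over all protein-coding genes. Of 6 fibroblast marker loci (COL1A1, COL1A2, COL3A1, PDGFRB, THY1 and VIM), 6 carried a peak in senescent, 3 in quiescent and 6 in proliferating cells. Of 3 epithelial and 3 endothelial marker loci each, 3 carried one in senescent and 3 in proliferating cells, and 1 epithelial locus did in quiescent cells. Of 3 leukocyte marker loci, 2 carried one in senescent, 0 in quiescent and 3 in proliferating cells. The median covered percent of the fibroblast loci was 20.2% in senescent, 3.04% in quiescent and 41.6% in proliferating cells. That of the leukocyte loci was 0.373% in senescent, 0% in quiescent and 3.09% in proliferating cells. For the epithelial loci it was 2.76% in senescent, 0% in quiescent and 2.26% in proliferating cells, and for the endothelial loci 5.64% in senescent, 0% in quiescent and 8.48% in proliferating cells. The fibroblast loci thus had the highest coverage in each list.

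Proteins of the BCL2 family decide whether the outer membrane of the mitochondrion stays closed. The survival proteins hold the effectors BAX and BAK1 in check, the BH3-only proteins bind the survival proteins or activate the effectors, and open effectors release cytochrome c, which leads to caspase activation. Senescent cells are known for resisting apoptosis, and inhibitors of the survival proteins are used as agents that kill them. R-loops form mostly while RNA is being made, and often at gene starts rich in G and C, where the displaced strand tends to carry runs of G.

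Of the 10 loci, 8 carried a peak in senescent, 5 in quiescent and 10 in proliferating cells. A locus is the annotated gene with 1000 bp on each side, with coordinates of GRCh38. Among all protein-coding genes a peak lay over the locus in 79.9% in senescent, 34.2% in quiescent and 83% in proliferating cells. With each list reduced to 9736 peaks, 8 loci carried a senescent and 7 a proliferating peak, so that the order of these states turned, and with peaks at or above the median score 3 loci carried a quiescent one. No share over all protein-coding genes is given for reduced lists, so counts from them are not read as particular to the family. In the full lists the 2 loci without a senescent peak were MCL1 and CASP2. Every locus with a peak in a list also had a peak within 1000 bp of the gene start in it. The share of all protein-coding genes with such a start peak was 66.6% in senescent, 26.2% in quiescent and 73.1% in proliferating cells. These shares count genes without any peak over the locus too. Of the 15956 genes with a senescent peak over the locus, 13301 had a start peak. In quiescent cells 5227 of 6836 such genes did, and in proliferating cells 14592 of 16584. The gene table gives no strand for BCL2L2 and MCL1, and either annotated end was used for these genes. The median share of a family locus under peaks was 11.1% in senescent, 0.227% in quiescent and 21.3% in proliferating cells. Short genes have a larger share of the locus at the gene start, and beside the median of genes of like length (the same length decile) 8 family genes were higher in senescent, 5 in quiescent and 10 in proliferating cells. A median splits the genes of a decile evenly, save for ties. In quiescent cells it was 0% for each family gene, so that the count there only repeats which loci had a peak. With peaks of at most 2000 bp the medians were close, 9.35% in senescent and 9.69% in proliferating cells, and 7 gene starts had a senescent and 5 a proliferating peak.

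The promoters of 4 genes are shown: CASP2, BCL2 and PMAIP1 because, of the 8 genes with a known strand, their gene starts differed most in coverage between senescent and proliferating cells, and BAK1 for its high-ranked start peaks in those lists. Each is the RefSeq window of GRCh38.p14 from 250 bases before to 50 bases after the transcription start, written 5′ to 3′ on the coding strand. Bases under a senescent peak are in capitals, and all 300 bases of each window lay under a proliferating peak. CASP2 (chr7:143288101-143288400, plus strand) and BCL2 (chr18:63319720-63320019, minus strand) had no base under a senescent peak. For BCL2 a senescent peak at chr18:63319495-63319701 lay just past the last base of the window. The nearest senescent peak to CASP2 was 16134 bp from the gene. PMAIP1 (chr18:59899746-59900045, plus strand) had its first 123 bases under one, and BAK1 (chr6:33580227-33580526, minus strand) had all 300 bases under a senescent and also under a quiescent peak.
CASP2: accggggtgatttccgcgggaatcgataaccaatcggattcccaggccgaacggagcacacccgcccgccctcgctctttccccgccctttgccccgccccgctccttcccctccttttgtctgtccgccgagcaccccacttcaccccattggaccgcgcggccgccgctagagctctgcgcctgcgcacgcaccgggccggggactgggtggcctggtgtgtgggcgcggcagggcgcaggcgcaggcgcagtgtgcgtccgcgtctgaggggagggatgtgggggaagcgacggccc
BCL2: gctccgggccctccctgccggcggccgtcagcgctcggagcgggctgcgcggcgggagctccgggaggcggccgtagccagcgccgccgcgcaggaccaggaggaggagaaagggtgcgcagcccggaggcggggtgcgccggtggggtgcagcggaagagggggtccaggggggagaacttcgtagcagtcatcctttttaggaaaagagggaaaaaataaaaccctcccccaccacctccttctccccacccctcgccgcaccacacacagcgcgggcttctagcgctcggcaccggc
PMAIP1: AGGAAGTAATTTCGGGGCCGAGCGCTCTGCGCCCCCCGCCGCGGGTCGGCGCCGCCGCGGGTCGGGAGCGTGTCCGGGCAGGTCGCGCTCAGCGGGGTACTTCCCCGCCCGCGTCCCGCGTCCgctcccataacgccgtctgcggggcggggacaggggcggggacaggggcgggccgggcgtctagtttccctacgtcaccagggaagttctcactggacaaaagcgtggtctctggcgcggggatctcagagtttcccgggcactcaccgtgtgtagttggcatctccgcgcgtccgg
BAK1: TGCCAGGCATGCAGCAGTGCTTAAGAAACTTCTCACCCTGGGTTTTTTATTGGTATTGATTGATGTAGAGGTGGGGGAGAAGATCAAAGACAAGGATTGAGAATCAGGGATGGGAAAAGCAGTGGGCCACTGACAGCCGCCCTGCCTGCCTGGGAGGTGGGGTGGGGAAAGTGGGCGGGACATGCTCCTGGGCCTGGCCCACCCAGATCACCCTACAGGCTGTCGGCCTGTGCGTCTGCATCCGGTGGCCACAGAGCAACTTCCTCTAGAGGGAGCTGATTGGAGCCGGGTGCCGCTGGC

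The survival genes ranged from a gene with a high-ranked peak in every list to a gene with peaks in proliferating cells alone. BCL2L2, which encodes BCL-w, lies at chr14:23306833-23311751. Its locus was covered over 18.8% in senescent, 10.8% in quiescent and 30.4% in proliferating cells. A single peak at the lower-coordinate end carried most of this in each list, 1303 bp wide in senescent, 750 bp in quiescent and 1647 bp in proliferating cells. Scores are the authors', have no stated scale and were used only to rank peaks within their own list. By that rank the peak stood above 99.4% of the senescent, 98.1% of the quiescent and 97.2% of the proliferating list. The covered percent in quiescent cells was above that of 98.2% of protein-coding genes. The readthrough gene BCL2L2-PABPN1 starts at the same base, so that the peak belongs to both annotations.

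MCL1, at chr1:150574558-150579610, encodes a short-lived survival protein. Peaks lay over 0% of the locus in senescent, 0% in quiescent and 24.9% in proliferating cells, the last from 2 peaks. The wider of these, 1522 bp, lay across the higher-coordinate end of the gene with a score above 91.1% of the proliferating list. The other, 238 bp wide near the opposite end, scored above 13.1%. The nearest peak to the gene was 5643 bp away in senescent and 12165 bp away in quiescent cells, both over the neighbouring ADAMTSL4-AS1. The senescent list held 13 peaks and the quiescent list 5 peaks within 50000 bp of the gene, so that the surroundings were not bare. The wider proliferating peak also reached LOC107985203, an RNA gene that begins 219 bp beyond MCL1, and the assay as deposited does not say which strand was in the hybrid.

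BCL2L1, at chr20:31664452-31723963 on the minus strand, encodes BCL-XL. It had 11 peaks in senescent, 1 in quiescent and 12 in proliferating cells, the most of the 10 genes in the senescent and the proliferating list. The locus was covered over 13.6% in senescent, 0.496% in quiescent and 17.7% in proliferating cells. Its start region gave almost equal values in the first and last of these: of the 2001 bases within 1000 bp of the gene start, 48.1% were covered in senescent, 15.2% in quiescent and 50.1% in proliferating cells. The highest peak lay elsewhere in proliferating cells, 1510 bp wide inside the gene from 10199 to 11708 bp past the start, above 98.7% of its list. In the senescent list the same place had a peak of 916 bp above 81.0%, and the start peak was the highest with a rank above 89.1%. The quiescent peak, 305 bp wide, scored above 31.0% of its list. Of the peaks counted here, 4 senescent and 5 proliferating ones also lay over BCL2L1-AS1, an RNA gene within BCL2L1.

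BCL2, the founding survival gene, lies at chr18:63123346-63320090 on the minus strand and is the longest of the 10. Peaks covered 1.45% of the locus in senescent, 0% in quiescent and 3.06% in proliferating cells. Senescent cells had more peaks, 7 against 5 in proliferating cells, but shorter ones. At the gene start the difference was clearest: 15.1% of the 2001 bases were covered in senescent, 0% in quiescent and 100% in proliferating cells. In senescent cells 2 peaks of 207 and 473 bp began 389 and 906 bp past the start, whereas in proliferating cells a single peak of 2919 bp ran from 1034 bp before the start to 1884 bp past it. The annotated start of the gene lies 321 bp before the transcription start of the printed window. The proliferating start peak was wide without being high, with a score above 70.5% of its list, and the shorter senescent peak stood above 89.1%. The nearest quiescent peak was 47113 bp from the gene, over KDSR and KDSR-DT.

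**Figure D1:**
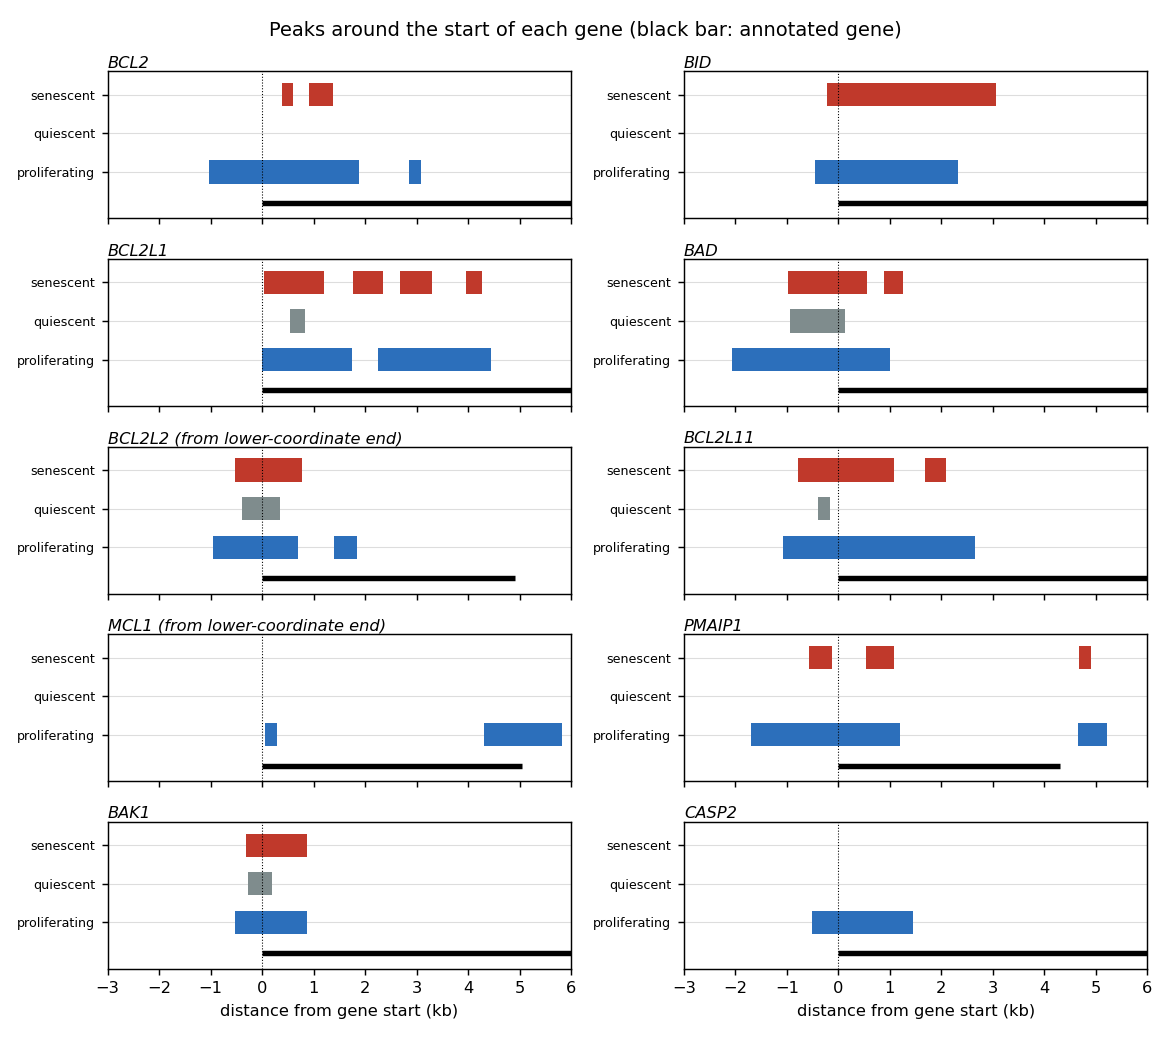
Peaks over the loci of the 10 genes, drawn from 3 kb before to 6 kb after each gene start, with a row each for senescent, quiescent and proliferating cells. The axis is in kb along the direction of transcription (from the lower-coordinate end for BCL2L2 and MCL1), and the annotated gene is a black bar. Peaks wholly farther than 1000 bp from the gene are not drawn. BCL2 and PMAIP1 each show 2 short senescent peaks inside 1 wide proliferating peak, and MCL1 and CASP2 show proliferating peaks alone. The wide peak of PMAIP1 overlapped 3 senescent peaks in the full list, and that of BAD 3 senescent and 2 quiescent peaks, not all of them drawn.

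BAK1, at chr6:33572552-33580276 on the minus strand, encodes an effector that forms pores in the mitochondrial membrane. Its locus was covered over 18.8% in senescent, 4.95% in quiescent and 32.6% in proliferating cells. The start peak was among the highest in 2 of the lists: its score of 54 ranked 297 of 85564 peaks in senescent cells, and its score of 119 ranked 29 of 101802 in proliferating cells. In quiescent cells the peak scored above 58.7% of the list. The peaks were 1178 bp wide in senescent, 481 bp in quiescent and 1390 bp in proliferating cells and all crossed the gene start. A second place beyond the end of the gene had a peak of 1206 bp in senescent and 1062 bp in proliferating cells, and a further one, 1305 bp wide inside the gene, was listed in proliferating cells only. The genes most like BAK1 by the Euclidean distance over 6 values, the covered percent and the rank of the highest peak in the 3 lists, were CTDSP2 (distance 5.39) and STMN1 (distance 6.32).

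Among the BH3-only genes, the ratio of senescent to proliferating covered percent over the locus was nearer to 1 at BAD (0.799) and BID (0.749) than at BCL2L11 (0.447) and PMAIP1 (0.438), an order that does not hold for the gene starts alone. BAD, at chr11:64269828-64284704 on the minus strand, encodes a protein that growth factor signalling keeps inactive by phosphorylation. The share of the locus under peaks was 26.4% in senescent, 7.95% in quiescent and 33.1% in proliferating cells, the highest senescent value of the 10. At the gene start the covered share was 82.2% in senescent, 53.6% in quiescent and 99.9% in proliferating cells. The start peak was 1534 bp wide in senescent, 1072 bp in quiescent and 3065 bp in proliferating cells. The proliferating one overlapped 3 senescent and 2 quiescent peaks, not all of them within 1000 bp of the gene. BAD lies almost wholly inside GPR137, which runs on the other strand, and ends 375 bp from PLCB3. Of its peaks, 5 of 6 in senescent, 1 of 2 in quiescent and 3 of 3 in proliferating cells lay over GPR137, so that the peaks cannot be assigned to 1 of the genes.

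BID, at chr22:17734138-17774665 on the minus strand, encodes a protein that caspases cleave after death receptor signalling and whose fragment moves to the mitochondrion. Its locus was covered over 8.66% in senescent, 0% in quiescent and 11.6% in proliferating cells. Its start peak was wider in senescent cells, 3287 bp from 220 bp before the start to 3066 bp past it, than in proliferating cells, where it measured 2775 bp from 451 bp before to 2323 bp past. The senescent peak stood above 97.0% of its list and the proliferating peak above 84.7%. It was the widest senescent start peak of the 10 genes. In the body of the gene senescent cells had 1 peak, against 5 in proliferating cells. The nearest quiescent peak was 95726 bp from the gene, over BCL2L13.

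BCL2L11, at chr2:111120914-111168445 on the plus strand, encodes BIM, which FOXO factors are known to induce when growth factors are withdrawn. Peaks took up 5.12% of the locus in senescent, 0.454% in quiescent and 11.5% in proliferating cells. The 2001 bases at the gene start were covered over 89.3% in senescent, 11.2% in quiescent and 100% in proliferating cells. In senescent cells this came from a peak of 1865 bp across the start. Farther into the gene lay another of 423 bp, and both were inside the proliferating peak of 3730 bp, the widest start peak of the 10 genes. The quiescent peak of 225 bp ended 163 bp before the start and scored above 7.64% of its list. Low quiescent coverage was the rule: 99.1% of genes with a peak in either list were at least 2-fold lower in quiescent than in proliferating cells. Whether the gene was induced in the quiescent cells was not tested.

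PMAIP1, at chr18:59899996-59904305 on the plus strand, encodes NOXA, which binds MCL1 and is a known p53 target. Its locus had the highest covered percent of the 10 in proliferating cells, with 19.2% in senescent, 0% in quiescent and 43.8% in proliferating cells. The 2001 bases at the gene start were covered over 45.0% in senescent, 0% in quiescent and 100% in proliferating cells. The senescent list had peaks of 441 bp and 531 bp on the sides of the start, the first ending 128 bp before it and the second beginning 542 bp past it. The proliferating list had 1 peak of 2902 bp across it, with a score above 93.2% of that list. That peak overlapped 3 senescent peaks, not all of them within 1000 bp of the gene. Of the senescent peaks of 441 bp and 531 bp, the higher stood above 90.6%. The nearest quiescent peak was 202392 bp away.

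CASP2, at chr7:143288351-143307696 on the plus strand, encodes caspase-2, which is activated in a complex with PIDD1 and CRADD and is known to cleave BID. Peaks lay over 0% of the locus in senescent, 0% in quiescent and 10.2% in proliferating cells. The proliferating start peak was 1953 bp wide, ran from 503 bp before the start to 1449 bp past it and ranked 2188 in its list, above 97.7% of the peaks. A second peak of 219 bp inside the gene stood above 42.3%. The nearest peak to the gene was 16134 bp away in senescent cells, over CLCN1, and 24722 bp away in quiescent cells, over TMEM139-AS1 and GSTK1. The senescent list held 4 peaks and the quiescent list 1 peak within 50000 bp of the gene. The start peak also reached TMEM139, which ends 301 bp before CASP2. By the distance used for BAK1 the genes most like CASP2 were KANSL2 (distance 3.22) and RPS15A (distance 3.53), a locus without a peak being given the lowest rank. Neither had a senescent or quiescent peak.

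**Figure D2:**
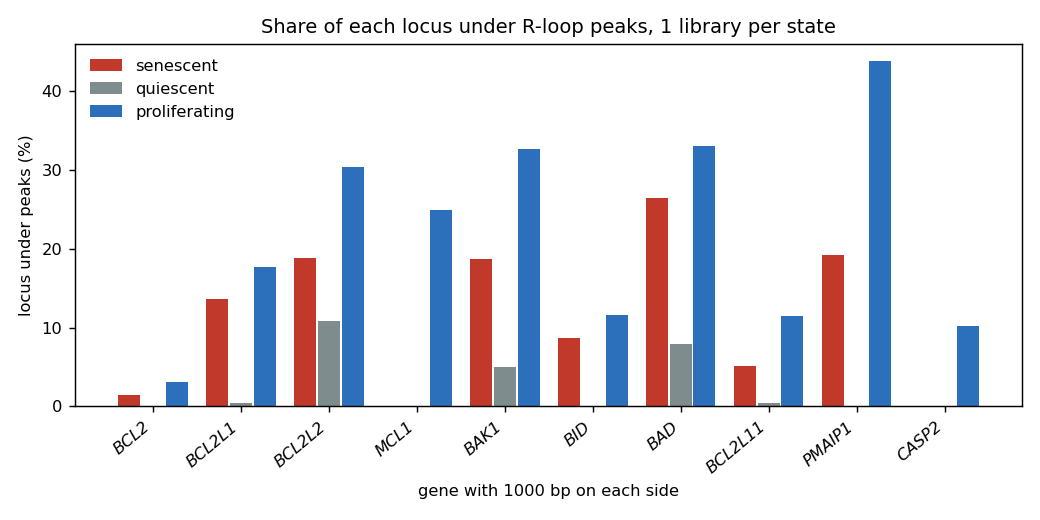
Percent of each locus (gene with 1000 bp on each side) under peaks, with bars for senescent, quiescent and proliferating cells, 1 library each and no error bars. The proliferating bar is the highest at each of the 10 genes, and MCL1 and CASP2 have no other bar.

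Senescent cells had a lower covered percent than proliferating cells at 10 of 10 loci, as was the case at 86.9% of the 16584 protein-coding genes with a proliferating peak. The ratio of senescent to proliferating covered percent had a median of 0.524 over the 10 genes, with a range of 0 to 0.799. Over all these genes the median was 0.598, with quartiles of 0.402 and 0.813. The 10 genes as a set thus lay near the middle of all genes, and they differed among themselves over most of that range. The ratio was 0.474 for BCL2, 0.447 for BCL2L11 and 0.438 for PMAIP1. It was 0.575 for BAK1 and 0.620 for BCL2L2. It was 0.749 for BID, 0.769 for BCL2L1 and 0.799 for BAD. At 6 of the genes the direction depended on which peaks were kept and turned under at least 1 of 6 alternatives. With each list reduced to 9736 peaks it turned for BCL2, BID and BCL2L11, with the proliferating list reduced to the senescent covered length for BCL2L1 and BID, and with peaks of at most 2000 bp for BAD, BCL2L11 and PMAIP1; BID also turned with peaks at or above the median score. BCL2L2, MCL1, BAK1 and CASP2 were lower in senescent cells under all 6. For MCL1 and CASP2 the direction could not have turned, because none of the 6 could add a senescent peak there. The share of all protein-coding genes that turned under these alternatives is not given.

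A covered percent at least 2-fold lower in senescent cells was found at 5 of the 10 genes, BCL2, MCL1, BCL2L11, PMAIP1 and CASP2, against 35.8% of all protein-coding genes with a peak in either list. None was at least 2-fold higher, against 5.12% of all genes. The 5 were 2 survival genes, 2 BH3-only genes and the caspase gene. With peaks of at most 2000 bp 3 genes were at least 2-fold lower and 2 at least 2-fold higher in senescent cells, and at 4-fold the 2 lower ones were MCL1 and CASP2. Shares over all genes are not given for these settings. A proliferating peak with no senescent peak anywhere over the locus, as at MCL1 and CASP2, was found at 6.63% of genes with a proliferating peak. It was rarer where the proliferating peak was high. Among the 7260 genes whose highest proliferating peak scored above 90% of its list, 84 (1.16%) had no senescent peak, and 2 of the 7 family genes in that range, again MCL1 and CASP2, were among them. Both were picked out after their values had been seen. The cut at 90% was not planned beforehand, and the highest MCL1 peak, above 91.1% of its list, lay just inside it. Genes in that range were not matched for length, so the 2 of 7 is not read as a result about the family.

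**Figure D3:**
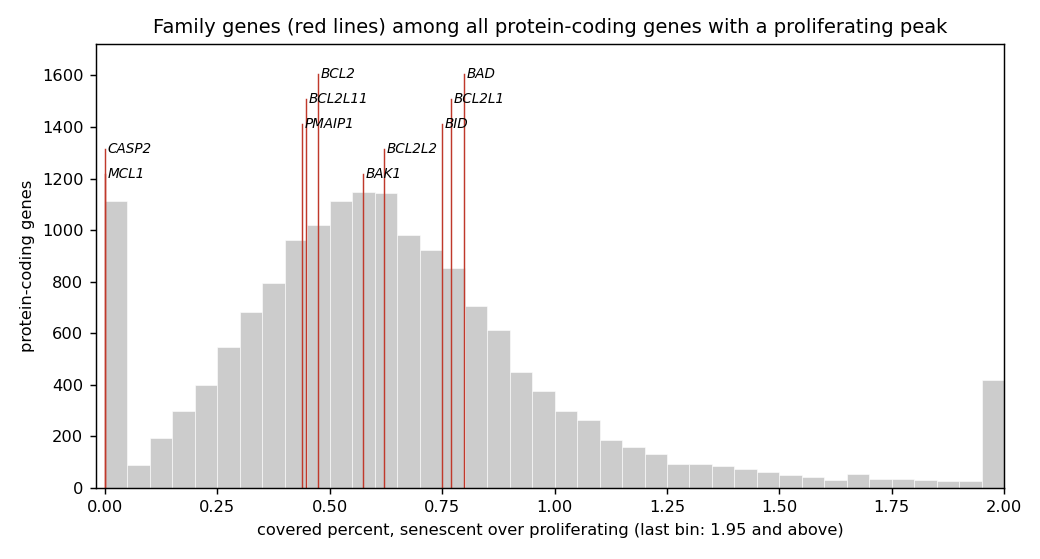
Number of protein-coding genes by the ratio of senescent to proliferating covered percent, for genes with a proliferating peak, with the 10 family genes as red lines at heights that serve the labels only. The first bar holds mainly the genes without a senescent peak, where MCL1 and CASP2 fall, and the other 8 lie between 0.438 and 0.799.

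In quiescent cells all 10 loci had a covered percent at least 2-fold lower than in proliferating cells, which was also so at 99.1% of genes, and none was at least 2-fold higher, against 0.00603% of genes. The ratio of quiescent to proliferating covered percent had a median of 0.0140 over the 10 genes and of 0 over all genes with a proliferating peak, and BCL2L2 had the highest of the 10, 0.357. No quiescent peak was found at 5 loci, BCL2, MCL1, BID, PMAIP1 and CASP2, against 58.8% of the genes with a proliferating peak. The 5 with a quiescent peak were BCL2L1, BCL2L2, BAK1, BAD and BCL2L11. Senescent cells had a covered percent at least 2-fold higher than quiescent cells at 7 of the 8 loci with a peak in either list, against 94.3% of genes, and at least 2-fold lower at 0, against 0.325%. The exception was BCL2L2, with a ratio of 1.74, where the median over the 6836 genes with a quiescent peak was 4.72.

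Most senescent and all quiescent peaks over the loci touched a proliferating peak. With at least 50% of both peaks shared, 34.3% of the 35 senescent and 0% of the 6 quiescent peaks matched one. No such share over all peaks is given, so these values are not read as particular to the family. Of the 35 senescent peaks over the 10 loci, 30 shared at least 1 bp with a proliferating peak (85.7%, 95% Wilson interval 70.6% to 93.7%, which covers counting error only), against 65.7% of all senescent peaks. Such intervals take the peaks as independent, but 11 of the 35 lay over BCL2L1 and all came from 1 library. At gene starts 11 of 11 senescent peaks overlapped a proliferating one, and elsewhere 19 of 24. No share over all gene-start peaks is given. Of the 41 proliferating peaks, 22 (53.7%, interval 38.8% to 67.9%) shared a base with a senescent peak, against 49.9% of all. All 6 quiescent peaks overlapped a proliferating and a senescent peak, against 99.4% and 94.1% of all quiescent peaks. Of the 35 senescent peaks, 6 (17.1%) overlapped a quiescent one, against 9.93% of the list, and of the 41 proliferating peaks 6 (14.6%) did, against 8.25%.

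In the median, the peaks at the gene starts were wider and ranked higher than those elsewhere in the loci in all 3 lists, in quiescent cells beside 1 peak only. Widths and ranks of start peaks over all genes are not given, so this is not read as particular to the family. Their median width was 1168 bp over 11 peaks in senescent, 481 bp over 5 peaks in quiescent and 1953 bp over 11 peaks in proliferating cells. The 11 proliferating ones include the 2 MCL1 peaks at opposite ends of the gene, because either end was used where no strand is given. Elsewhere in the loci the median width was 590.5 bp over 24 senescent and 685.5 bp over 30 proliferating peaks, and the 1 quiescent peak measured 269 bp. The median rank of the start peaks was above 89.1% of the senescent, 58.7% of the quiescent and 93.2% of the proliferating list. Over the 8 genes with a known strand, the median share of the 2001 start bases under peaks was 53.5% in senescent, 5.62% in quiescent and 87.5% in proliferating cells. Over all 15812 protein-coding genes with a known strand it was 28.9% in senescent, 0% in quiescent and 61.8% in proliferating cells.

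**Figure D4:**
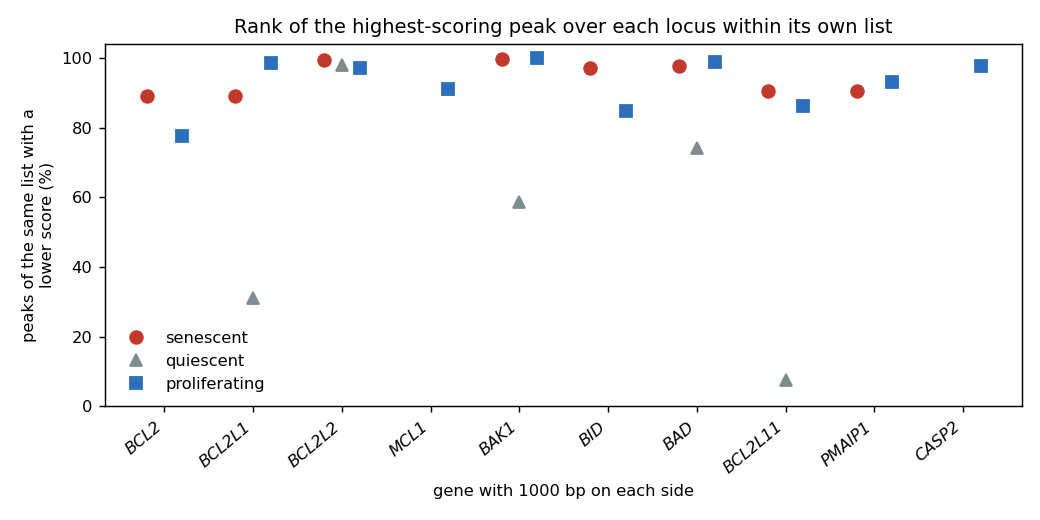
Share of the peaks of the same list that score below the highest peak over each locus, in percent, for senescent, quiescent and proliferating cells; a gene without a symbol for a state had no peak in that list. BAK1 stands above 99% in senescent and proliferating cells and BCL2L2 above 97% in all 3 lists, while the quiescent peaks of the other genes are spread from 7.64% to 74.3%.

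Promoter windows were found for 8 of the 10 genes, all but BCL2L2 and MCL1. Their median G+C was 69.5%, against 62.7% over 15812 promoters. Their GC skew on the coding strand, (G - C)/(G + C), had a median of 0.0516 against 0.00807. Runs of at least 3 G on the coding strand numbered 11.5 in the median against 7. All 8 windows had bases under a proliferating peak. Over the 10884 promoters with such a peak the medians were 65.7% G+C, a skew of 0.00917 and 7 runs of G. Runs of at least 3 C numbered 6.5 in the 8 windows, 6 over all promoters and 7 over those 10884. The 2 windows with no base under a senescent peak, CASP2 and BCL2, had a G+C of 71.3% and 70.7% and a GC skew of -0.0561 and 0.0377. BAK1 had the highest skew of the 8, 0.193, above that of 90.1% of all promoters, with 13 runs of G at a G+C of 58.7% and few CpG for its composition (observed over expected 0.282, against a median of 0.762).

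Windows of unlike composition lay under senescent peaks. PMAIP1 had the most runs of G, 16, and a CpG ratio of 1.11, above that of 96.7% of promoters, with 123 of its 300 bases under a senescent peak. BID had a G+C of 48.7% and 6 runs of G with 270 bases under one. BAD, with a G+C of 68.3% and 13 runs of G, and BCL2L11, with 74.7% and 12 runs, had all 300 bases under one. BCL2L1 had 12 bases under a senescent and 51 under a proliferating peak, its peaks beginning near the start and running into the gene. The GC box letters GGGCGG, searched on both strands and counted once per window, were found in 5 of the 8 windows (BAK1, BAD, BCL2L11, PMAIP1 and CASP2), against 58.3% of all promoters. On the coding strand the GGG of this motif is also counted as a run of G. The letters were also found in 72.1% of the promoters with a senescent peak over the window, 76.0% of those with a quiescent peak and 72.1% of those with a proliferating peak.

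**Figure D5:**
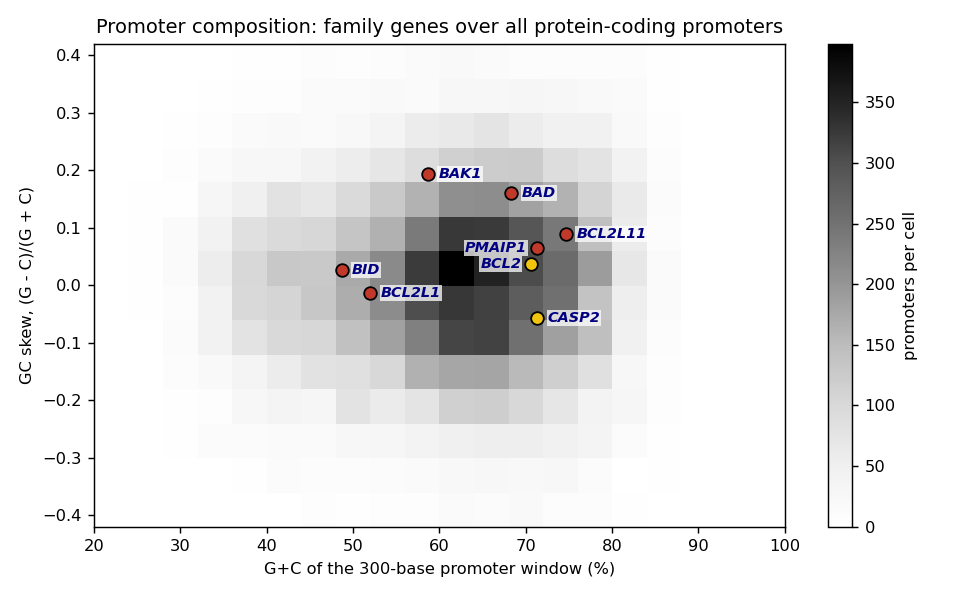
G+C in percent and GC skew of the 300-base promoter window of 8 family genes, over the number of protein-coding promoters in each cell of the grid (grey scale). Red symbols have at least 1 base under a senescent peak and yellow symbols, BCL2 and CASP2, have none. A senescent peak of BCL2 lay just past its window. The 2 yellow symbols lie within the red ones on the G+C axis. On the skew axis BCL2 (0.0377) lies among the red ones. CASP2 (-0.0561) lies below them all, the lowest red symbol being BCL2L1 (-0.0128).

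The other genes of the pathway were taken from lists by role, and their counts are read beside the 35.8% of all genes called at least 2-fold lower in senescent than in proliferating cells and the 5.12% called higher. Their counts of loci with a peak are read beside the 79.9% of all genes in senescent, 34.2% in quiescent and 83% in proliferating cells. Of 21 other BCL2 family and partner genes, 18 carried a peak in senescent, 10 in quiescent and 19 in proliferating cells. Of the 19 with a senescent or proliferating peak, 9 were at least 2-fold lower and 1 (BCL2L14) at least 2-fold higher in senescent cells. BCL2L10 had peaks in proliferating cells alone, over 15.2% of its locus. BAX, the second effector beside BAK1, was covered over 21.5% in senescent, 3.69% in quiescent and 37.2% in proliferating cells. BBC3, which encodes the BH3-only protein PUMA, had 37.5% of its locus under peaks in senescent, 11.4% in quiescent and 57.7% in proliferating cells. For BMF, another BH3-only gene, the share was 53.2% in senescent, 11.9% in quiescent and 62.8% in proliferating cells. Both values were above those of each of the 4 BH3-only genes described earlier in the same state. BOK, a BAX-like gene, was covered over 23.4% in senescent, 5.04% in quiescent and 25.4% in proliferating cells. MOAP1, whose protein binds BAX, had 17.4% in senescent, 0% in quiescent and 41.7% in proliferating cells.

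Of 14 genes for caspases, the apoptosome and the PIDDosome, 11 carried a peak in senescent, 5 in quiescent and 11 in proliferating cells. Of 12 with a senescent or proliferating peak, 3 were at least 2-fold lower and 1 (CASP10) at least 2-fold higher in senescent cells. The CASP10 call rested on 0.572% of the locus in senescent against 0% in proliferating cells. The genes for the partners of caspase-2 did have senescent peaks. PIDD1 was covered over 28.4% in senescent, 2.70% in quiescent and 46.4% in proliferating cells. CRADD had 1.90% of its locus under peaks in senescent, 0% in quiescent and 5.89% in proliferating cells. The initiator gene CASP9 had 3.90% in senescent, 0% in quiescent and 7.75% in proliferating cells. CYCS, which encodes cytochrome c, was covered over 4.38% in senescent, 0% in quiescent and 17.3% in proliferating cells. Apart from CASP2, the only gene of this group with a proliferating and no senescent peak was CASP1, with 3.07% in proliferating cells.

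Of 10 inhibitors of apoptosis and their antagonists, 8 carried a peak in senescent, 1 in quiescent and 9 in proliferating cells. All 10 had a senescent or proliferating peak, and 5 were at least 2-fold lower and 1 (NAIP) at least 2-fold higher in senescent cells. The NAIP call rested on 0.336% of the locus in senescent against 0% in proliferating cells. BIRC2, which encodes the ubiquitin ligase cIAP1, had 0% of its locus under peaks in senescent, 0% in quiescent and 6.56% in proliferating cells. MCL1, CASP2, BCL2L10 and CASP1 had peaks in proliferating cells alone in the same way, and XIAP, with 2.27% in proliferating cells and no other peak, did too. The share of all genes with peaks in proliferating cells alone is not given. Of all genes with a proliferating peak, 6.63% had no senescent one. BIRC3, the neighbour of BIRC2, was covered over 0.815% in senescent, 0% in quiescent and 5.02% in proliferating cells. HTRA2, the gene of a mitochondrial protease that antagonises these inhibitors, had 39.4% in senescent, 0% in quiescent and 43.5% in proliferating cells. BIRC7 had 59.9% in senescent, 0% in quiescent and 60.4% in proliferating cells. The list thus held loci with nearly the same value in senescent and proliferating cells beside loci without a senescent peak. BIRC5, which encodes survivin, was covered over 7.20% in senescent, 0% in quiescent and 8.82% in proliferating cells. SEPTIN4, whose ARTS isoform binds XIAP, had 10.6% in senescent, 0% in quiescent and 24.4% in proliferating cells.

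Of 15 genes of the death receptor pathway, 14 carried a peak in senescent, 7 in quiescent and 14 in proliferating cells. Of these 14, 4 were at least 2-fold lower and 0 at least 2-fold higher in senescent cells. TNFRSF1A, which encodes the main TNF receptor, was covered over 58.5% in senescent, 16.4% in quiescent and 62.6% in proliferating cells. Among the adaptor genes, FADD had 24.1% in senescent, 0% in quiescent and 32.1% in proliferating cells. TRADD, the adaptor of TNFRSF1A, had 26.9% in senescent, 2.69% in quiescent and 54.7% in proliferating cells. RIPK3, the gene of a kinase of necroptosis, differed in direction from the 10 family genes, with 41.9% in senescent, 0% in quiescent and 26.7% in proliferating cells. TNFSF10, which encodes the death ligand TRAIL, did so too, with 6.55% in senescent, 0% in quiescent and 4.11% in proliferating cells. TNFRSF25, a further receptor gene, had 27.1% in senescent, 0% in quiescent and 37.4% in proliferating cells.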

How the data were processed

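Peak lists of 3 RH-MNase libraries were used. The deposited score of a peak is a whole number of at least 10 from the authors' peak caller, on a scale that no source states. The submitters' processing notes name MACS2 2.2.7.1 and Bowtie2 2.4.5 beside FastQC 0.11.9, with GRCh38 as the genome. Caller settings, read filters and whether GST-MNase libraries served as control were not given in the sources used here. Read depth is unknown.

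Peaks were merged and intersected with 19974 protein-coding genes of RefSeq, of which 4162 have no strand, in Python 3.11.15 with pandas 2.3.3, numpy 2.4.6 and scipy 1.17.1. Figures were drawn with matplotlib 3.10.9. A locus is a gene with 1000 bp on each side, covered percent is the share of its bases under peaks, and a call is a 2-fold difference in it. The overlap code was checked on simulated peaks. Named genes were all 10 family genes, their neighbours, the 2 genes most like BAK1 and CASP2, and of each pathway list up to 5 genes by covered percent in proliferating cells and 3 by senescent minus proliferating. Some genes that this rule takes are not reported here. BCL2L10, BCL2L14, CASP1, CASP10, NAIP, TNFSF10 and XIAP were named after their values were seen. The genes and lists were chosen with earlier results of these data known. The alternatives tried were other peak sets, flanks, windows, overlaps and folds.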

Additional observations from a re-analysis of the deposited data

How the results depend on the processing

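With 1 list per state there is no spread between replicates, and no paired analysis was possible because each state had 1 library. A value counts as moved when it changed by over 1.5 times, or, for an overlap, left its Wilson interval. MCL1 and CASP2 had no senescent peak in any setting tried, but no setting could have given them one. The peak sets only left peaks out. The widest flank, 5000 bp, was shorter than the gap to the nearest senescent peak, 5643 bp for MCL1 and 16134 bp for CASP2. The senescent minus proliferating covered percent kept its sign in 51 of 60 values under 6 alternatives and reversed in 9. With peaks at or above the median score, 3 loci and 3 gene starts had a quiescent peak, the quiescent median was 0%, and BID gave 0.332. With equal numbers of peaks 8 loci had a senescent and 7 a proliferating peak, the median was 4.81% in senescent and 11.7% in proliferating cells, 3 loci were at least 2-fold higher in senescent and 1 in quiescent than in proliferating cells, and the differences for BCL2 (0.104), BID (7.73) and BCL2L11 (0.501) turned positive. With the proliferating list reduced to the senescent covered length, those for BCL2L1 (2.07) and BID (2.13) did. With peaks of at most 2000 bp, 7 gene starts had a senescent and 5 a proliferating peak, the median was 9.35% in senescent and 9.69% in proliferating cells, 3 loci were lower and 2 higher in senescent cells, and BAD (17.2), BCL2L11 (1.04) and PMAIP1 (10.3) reversed; this setting takes out wide proliferating peaks at these loci. Without a flank the quiescent median was 0%, and at 4-fold 2 loci were lower in senescent cells. Asking for 50% of both peaks, the overlapped share was 34.3% of senescent peaks by proliferating, 29.3% of proliferating by senescent, 0% of quiescent by proliferating, 0% of proliferating by quiescent, 5.71% of senescent by quiescent and 33.3% of quiescent by senescent. Within 1000 bp, 68.3% of proliferating peaks had a senescent one. The cause of a moved value was not tested, and no share over all protein-coding genes is given for the alternatives.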
